A study of Saccharomyces cerevisiae with 3 samples.

Results

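The mitochondrial ribosome of budding yeast is assembled almost wholly from proteins encoded in the nucleus, which are made in the cytosol and imported. The genes examined here are those whose symbols name them as mitochondrial ribosomal proteins: MRPL and MRPS followed by a number, MRP followed by a number, and RSM followed by a number, with MRP8 left out by rule. They number 64 of the 5539 named genes on the array, 37 of the large subunit and 27 of the small subunit, and each had 2 spots. MRP10 and MRPL15 carry matching symbols in the RefSeq gene table and were not analysed here.

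RNA was compared between wild-type Saccharomyces cerevisiae exposed to 0.2 mM arsenite, As(III), for 1 h and untreated wild-type cells. On each of 3 two-colour arrays both RNAs were hybridised together, so each array gives a ratio of treated over untreated cells for every spot. Treated RNA was labelled with Cy5 except on replicate 3, where it carried Cy3. The strain is not named in the labels, and neither are the cultures behind each array, so the p-values below measure only the spread between these arrays. All values are log2 ratios of treated over untreated cells after turning replicate 3 and centring each array on its median over genes, given where summarised as mean ± SD over 3 arrays. No label states the direction of the ratio: Cy5 over Cy3 is the likely one and was assumed.

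Mitochondrial ribosomes translate the few messages of the mitochondrial genome, most of which encode core subunits of the respiratory chain and ATP synthase. Their large subunit holds the peptidyl transferase centre and the exit tunnel, and their small subunit decodes the message. Many of the proteins have counterparts in bacterial ribosomes and others are specific to mitochondria. In yeast, the mRNAs of many of these proteins are bound by Puf3, an RNA-binding protein that promotes their decay, and their genes are known to be regulated apart from those of cytosolic ribosomal proteins.

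Replicate 2 differed from the other arrays in 2 ways that touch the values below. Its deposited median over all spots was 0.54, against -0.07 for replicate 1 and -0.12 for replicate 3 after turning, an offset that centring removes. Its ratios also drifted with the order of the spots. In 24 runs of 544 consecutive spots, the centred run medians of replicate 2 ranged from -0.35 to 0.29, with the low values at the end of the list, whereas the last 2 runs of replicates 1 and 3 were high (0.20 to 0.33). The run medians spanned -0.17 to 0.33 on replicate 1 and -0.16 to 0.26 on replicate 3. Values with each run centred on its own median are given where they change a member's call or the number of genes of a list that passed, and for some other members. Duplicate spots of the 64 genes had a single-spot SD of 0.14, 0.22 and 0.18 on replicates 1, 2 and 3.

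Transcripts for mitochondrial ribosomal proteins stayed close to the median gene. Of the 64 genes, 4 fell and 2 rose at an adjusted p threshold of 0.05 (limma, Benjamini-Hochberg over all genes), and 58 did not pass. Over all 5539 genes, 18.1% fell and 14.5% rose, or 32.7% in either direction, against 9.38% of members. Without adjustment, 5 members lay below 0 and 3 above it at the same threshold, or 12.5% of them, against 42.2% of all genes. The median over members of their mean log2 ratio was 0.03, and the medians on replicates 1, 2 and 3 were 0.05, -0.05 and 0.01. Means above 0 were found for 34 members and means below 0 for 30. The counts moved with the processing. With values as deposited, which here means replicate 3 turned but no array centred, 1 member fell and 1 rose, against 10.9% and 10.9% of all genes. With the last spot of each gene, 3 fell and 0 rose, against 16.1% and 12.4% of all genes. Without replicate 1, 2 fell and 0 rose, against 10.9% and 7.44% of all genes. With runs of spots centred, 4 fell and 3 rose, against 21.1% and 16% of all genes. The counts of 0 that rose are from limma and stood at 2 (last spot) and 1 (without replicate 1) at an unadjusted p under 0.05.

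The members also lay closer together than genes at large. The SD of the mean log2 ratio was 0.33 over the 64 members and 0.72 over all genes, while the median standard error of a gene was 0.19 in both sets. A mean of less than 2-fold in either direction was found for 63 of the 64 members, against 86.4% of all genes. The 95% interval of the mean lay wholly inside 2-fold for 59 members, against 70.5% of all genes. The 5 whose interval reached past 2-fold were MRPL51, MRPL35, MRPS9, RSM26 and RSM19. The same sign on all 3 arrays was seen for 24 members (37.5%), 11 of them above 0 and 13 below, against 58.9% of all genes. With runs centred, 30 of the 64 members kept 1 sign on all arrays, and so did 3518 of all 5539 genes.

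**Figure D1:**
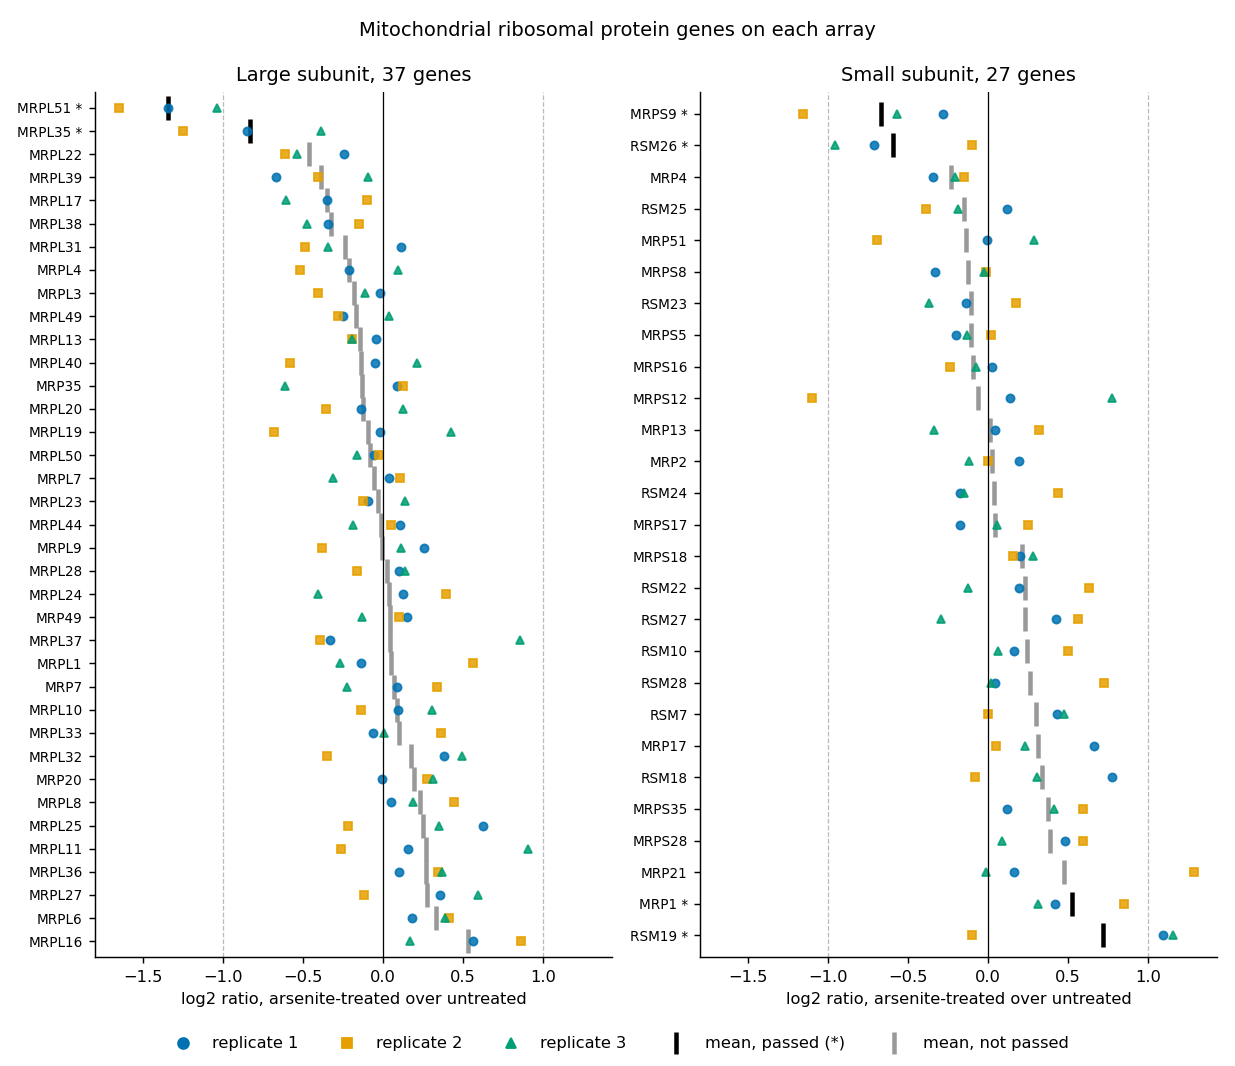
Log2 ratio of arsenite-treated over untreated cells for each of the 64 mitochondrial ribosomal protein genes, large subunit on the left and small subunit on the right, with 1 marker for each array and a vertical bar for the mean. Black bars and asterisks mark the 6 genes that passed the test; dashed lines mark 2-fold, which only the mean of MRPL51 (-1.34) crosses.

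The plot of every member by array shows that the genes in the middle of the order change sides from array to array. Across the 64 members, Pearson's r between arrays was 0.464 between the first pair (replicates 1 and 2), 0.600 between 1 and 3, and 0.102 between 2 and 3. Across all genes it was 0.823, 0.842 and 0.679. Genes on 1 array share its RNA, dyes and spot order, so these values describe how the arrays repeat. With runs of spots centred, a choice made after the data were seen, r across members was 0.731, 0.527 and 0.292. With the same centring, r across all genes was 0.893, 0.843 and 0.732.

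MRPL51 (YPR100W), a mitochondria-specific protein of the large subunit, fell most. Its log2 ratios were -1.34, -1.65 and -1.04 on replicates 1, 2 and 3. Each was the lowest of any member on its array, and the mean of -1.34 ± 0.31 is a 2.54-fold lower level in treated cells (limma adjusted p = 0.000124, 95% interval -1.75 to -0.93). In the RefSeq table of assembly R64, MRPL51 overlaps YPR099C, which has no named spot in the table used here and lies on the other strand by its systematic name. The files do not describe the probes, and the part of the overlapping gene in this signal was not tested. MRP4 and MRPL19, which did not pass, are the other members with an overlapping gene next to them. The next gene along the same strand, SNT309, which encodes a splicing factor, fell too (-0.96, -1.13 and -0.80, limma adjusted p = 0.0011).

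MRPL35 (YDR322W), another large-subunit protein without a bacterial counterpart, had -0.85, -1.25 and -0.38. It was below 0 on every array and fell 1.77-fold in the mean (-0.83 ± 0.43, limma adjusted p = 0.00678), a call lost without replicate 1 (adjusted p = 0.0562) and with values as deposited (0.0518).

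In the small subunit, MRPS9 (YBR146W), the counterpart of bacterial S9 in the head, had -0.28, -1.16 and -0.57 and fell in the mean (-0.67 ± 0.45, limma adjusted p = 0.0229). Its spread narrowed when runs of spots were centred, with -0.60, -0.84 and -0.79 on the 3 arrays (adjusted p = 0.00403). It did not pass without replicate 2 (adjusted p = 0.0978), with values as deposited (0.153) or with the last spot (0.0526). RSM26 (YJR101W), a mitochondria-specific small-subunit protein related in sequence to superoxide dismutases, had -0.71, -0.10 and -0.96. It fell in the mean (-0.59 ± 0.44, limma adjusted p = 0.0405), and the call was lost without replicate 1 (0.286), without replicate 3 (0.169), with runs centred (0.0676), with values as deposited (0.233) and with the first spot (0.124). Its 2 spots differed by 0.55 on replicate 3.

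Both members that rose belong to the small subunit. RSM19 (YNR037C), the counterpart of bacterial S19 in the head, had 1.09, -0.10 and 1.16, so 2 arrays were high and replicate 2 was near 0. Its mean of 0.72 ± 0.71 was the highest of any member (limma adjusted p = 0.0359). RSM19 lies in the 23rd run of spots, where the run median of replicate 2 was -0.35. With runs centred it had 0.74, 0.22 and 0.88, above 0 on every array (adjusted p = 0.0216), but it did not pass without replicate 1 (0.287), without replicate 3 (0.0862) or with the last spot (0.0766).

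MRP1 (YDR347W), a mitochondria-specific small-subunit protein that is also related to superoxide dismutases, had 0.42, 0.85 and 0.31. It lay above 0 on all 3 arrays and rose 1.44-fold (0.53 ± 0.28, limma adjusted p = 0.0470), close to the threshold, and passed under 5 of 11 alternatives. It was lost without replicate 1 (0.229), without replicate 2 (0.150), with values as deposited (0.116) and with the last spot (0.135), and just missed the threshold when centred on all spots (0.0573) or with a dye effect (0.0521). MRP1 and RSM26, which are related proteins of 1 subunit, thus passed in opposite directions. MRPL16, a counterpart of bacterial L16 near the peptidyl transferase centre that was picked out after its values were seen, lay just outside the threshold with 0.56, 0.86 and 0.17 (adjusted p = 0.0508). MRPL22, the counterpart of bacterial L22 in the exit tunnel and chosen in the same way, had -0.24, -0.61 and -0.54 (adjusted p = 0.0677). Both passed with runs centred (adjusted p = 0.0441 for MRPL16 and 0.0447 for MRPL22).

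The members with the largest spread over arrays were MRPS12, RSM19, MRP21 and MRPL37. MRPS12, the counterpart of bacterial S12 at the decoding centre, had 0.14, -1.10 and 0.78 (SD 0.95). Its spots lie in the last run, and with runs centred it still had -0.18, -0.78 and 0.56. MRP21, the counterpart of bacterial S21, had 0.16, 1.29 and -0.01, and its 2 spots on replicate 2 differed by 0.99, the widest gap of any member on any array. MRPS12 and MRP21 did not pass, although MRP21 did without replicate 3 (0.72, limma adjusted p = 0.0082). The means nearest 0 were those of MRPL9 (-0.0031), MRPL44 (-0.0091) and MRPL23 (-0.03) in the large subunit and of MRP13 (0.0096), MRP2 (0.02) and RSM24 (0.04) in the small subunit. MRPL9, the counterpart of bacterial L3, had 0.25, -0.38 and 0.12 on the 3 arrays, and -0.06, -0.07 and -0.10 with runs centred. A mean near 0 could thus hide arrays of opposite sign.

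With each array centred on its median, the subunits differed by less than the spread between arrays. In the large subunit 2 of 37 genes fell and 0 rose (limma; 3 below and 1 above 0 at an unadjusted p under 0.05), and in the small subunit 2 of 27 fell and 2 rose, where 18.1% and 14.5% of all genes did. With runs centred, 3 fell and 1 rose in the large subunit and 1 fell and 2 rose in the small subunit, where 21.1% and 16% of all genes did. The median of the large subunit was -0.0024, -0.15 and 0.04 on replicates 1, 2 and 3, and that of the small subunit was 0.12, 0.05 and -0.01. Large minus small was therefore -0.12, -0.20 and 0.05, with a mean of -0.09 ± 0.13 (SD, n = 3). With runs centred, the medians were -0.03, -0.04 and -0.05 for the large subunit and 0.15, 0.16 and 0.0024 for the small subunit. The large subunit was then the lower on every array, and large minus small had a mean of -0.15. An exact two-sided sign-flip test on 3 arrays cannot give a p below 0.25, and no test was made of this difference.

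**Figure D2:**
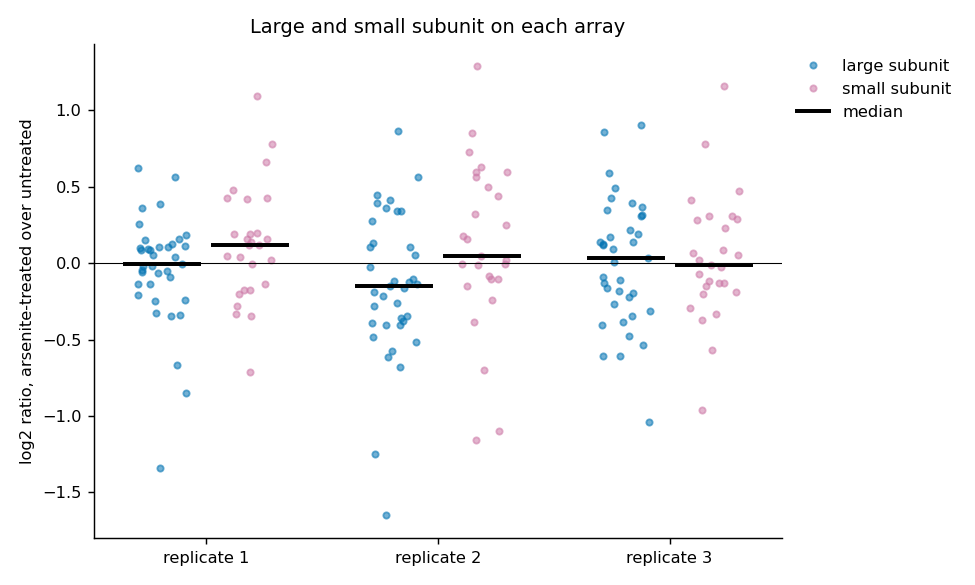
Log2 ratios of the 37 large-subunit and 27 small-subunit genes on each of the 3 arrays, with 1 point for each gene and a black line for the subunit's median. The large-subunit median lies below the small-subunit median on replicates 1 and 2 and above it on replicate 3. With runs of spots centred, which is not drawn, it lies below on all 3 arrays.

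Within the large subunit, the 24 members with bacterial counterparts held 0 genes that passed (limma; 1 below and 1 above 0 at an unadjusted p under 0.05), with a median of 0.02. With runs centred, MRPL22 fell and MRPL16 rose among them and the median was -0.06. Those beside the exit tunnel were MRPL22 (-0.46 ± 0.20), MRPL4 (-0.21 ± 0.31), MRPL40 (-0.14 ± 0.40) and MRP20 (0.20 ± 0.17). Of these, MRPL22 had 1 sign on all 3 arrays, and with runs centred so did MRPL40 (-0.41, -0.25 and -0.06) and MRP20 (0.08, 0.11 and 0.43). Near the peptidyl transferase centre, MRPL16 had 0.53 ± 0.35, MRP7 0.07 ± 0.28 and MRPL9 a mean near 0. In the stalks, through which tRNAs leave and translation factors arrive, MRPL1 had 0.05 ± 0.45, MRPL11 0.27 ± 0.59 and MRPL19 -0.09 ± 0.56. Each of the 3 stalk genes spread by more than its mean, and 0 of them had 1 sign on all arrays, also with runs centred. The other 14 conserved members ran from MRPL39 (-0.39) to MRPL6 (0.33), with a median of 0.0062 (-0.03 with runs centred). MRPL6, the counterpart of bacterial L6, was above 0 on all arrays (0.18, 0.42 and 0.39) but did not pass (adjusted p = 0.179).

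The 13 mitochondria-specific members of the large subunit ran from MRPL51 (-1.34) to MRPL27 (0.28), with 2 that fell, 0 that rose (limma; 0 above 0 at an unadjusted p under 0.05) and a median of -0.12. The 2 that fell are 15.4% of the 13, against 18.1% of all genes, of which 14.5% rose. Of the 13, 5 were below 0 on all arrays (MRPL51, MRPL35, MRPL17, MRPL3 and MRPL13), or 38.5%, against 29.7% of all genes. Above 0 on all arrays were 0, against 29.2% of all genes. With runs centred, MRPL3 was above 0 on replicate 1 (0.02), and MRPL25 was above 0 on all arrays (0.31, 0.10 and 0.13). MRPL17 (-0.35, -0.10 and -0.61) did not pass (adjusted p = 0.170). MRPL37 had -0.33, -0.39 and 0.86 (SD 0.70), so replicate 3 alone was high.

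In the small subunit, the platform genes MRPS18, MRPS28, MRP17, RSM18 and MRP21, counterparts of bacterial S11, S15, S6, S18 and S21, all had means above 0. These ran from 0.21 for MRPS18 to 0.48 for MRP21, with a median of 0.33 (0.24 with runs centred). Of the 5, 0 passed (limma, also 0 at an unadjusted p under 0.05). The spots of MRP17 and RSM18 lie in the last 2 runs. Centring the runs took replicate 1 from 0.66 to 0.34 for MRP17 and from 0.78 to 0.42 for RSM18. MRPS18 had 0.20, 0.16 and 0.28 (SD 0.06), and 0.19, -0.0059 and 0.33 with runs centred (SD 0.17). The 7 genes of the body, among them MRPS5, MRPS8, MRP4 and MRP51, ran from -0.23 for MRP4 to 0.04 for MRPS17, and 0 of them passed (also 0 unadjusted). In the head, MRPS9 and RSM19 passed in opposite directions, while MRP2 (0.02), RSM10 (0.24) and RSM7 (0.30) did not pass. RSM7, the counterpart of bacterial S7, had 0.43, -0.0028 and 0.47, and 0.32, 0.31 and 0.40 with runs centred (adjusted p = 0.0865). The 9 mitochondria-specific members of the small subunit had a median of 0.04, with 1 that fell and 1 that rose (0 and 1 with runs centred, where RSM26 did not pass). That is 11.1% each way, against 18.1% and 14.5% of all genes (21.1% and 16% with runs centred). MRPS35 (0.12, 0.59 and 0.41) was above 0 on all arrays without passing (adjusted p = 0.141). RSM22, a protein related to methyltransferases that was placed in no region, had 0.23 ± 0.38.

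Mitoribosomal proteins that carry other names ran from PET123 (-0.27) to EHD3 (0.82). Of 13 such genes, EHD3 rose (7.69%, against 14.5% of all genes) and 12 did not pass, with 0 that fell (limma; 0 below and 2 above 0 at an unadjusted p under 0.05) and a median of 0.07. EHD3 is a hydrolase of valine breakdown that is also a component of the small subunit. It had 0.45, 1.05 and 0.95 (0.82 ± 0.32, limma adjusted p = 0.00506) and passed under every alternative tried, with adjusted p up to 0.0132. IMG2, of the large subunit, had 0.41, 0.14 and 1.24 (adjusted p = 0.0537). It passed without replicate 2 (0.00489) and with a dye effect in the fit (0.000886). IMG1, the counterpart of bacterial L19, had 0.07, -1.09 and 0.93, a pattern over arrays like that of MRPS12. Its spots lie in the 22nd run, and with runs centred replicate 2 was still at -0.78.

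The rest of these genes did not pass. MNP1, the counterpart of the bacterial stalk protein L12, had -0.05 ± 0.23, RML2, of L2, 0.07 ± 0.25, and YML6, of L4, -0.04 ± 0.26. In the small subunit NAM9, of S4, had -0.07 ± 0.19, SWS2, of S13, 0.12 ± 0.20, and the mitochondria-specific PET123 -0.27 ± 0.15. PET123 was below 0 on all arrays (-0.11, -0.32 and -0.39). The remaining genes were MHR1, which is also known for a part in mitochondrial DNA recombination (-0.06 ± 0.29), MRX14 (0.28 ± 0.16), FYV4 (0.38 ± 0.45) and QRI5 (0.14 ± 0.61). FYV4 passed without replicate 3 (adjusted p = 0.0231).

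Cytosolic ribosomal protein genes fell on the same arrays. Of 132, 127 fell (96.2%) and 1 rose (0.76%), against 18.1% and 14.5% of all genes. RPS30A (mean 0.67) rose, and RPL10, RPL41B, RPL43B and RPS19A did not pass. These 5 were named after their values were seen. With runs centred, 128 of the 132 fell, against 21.1% of all genes. With the last spot of each gene, or without replicate 1, 0 of the 132 rose. Many cytosolic genes have near-identical copies whose signals the files do not let one separate. The cytosolic medians on the 3 arrays, in the same order, were -1.80, -1.94 and -1.73. The mitochondrial median lay above the cytosolic one by 1.85, 1.88 and 1.74 on these arrays (1.83 ± 0.07, SD, n = 3), a gap many times its spread. On every array, all 64 mitochondrial members lay above the cytosolic median. Of 36 nuclear genes of the respiratory chain and ATP synthase, 11 rose and 0 fell (limma), that is 30.6% that rose against 14.5% of all genes. At an unadjusted p under 0.05, 14 of the 36 lay above 0 and 0 below it. The median of this list was 0.31, with 0.26, 0.09 and 0.61 on the 3 arrays, so replicate 2 was the lowest. With runs centred, 13 rose against 16% of all genes, and the median on replicate 2 was 0.0028. Among them SDH1 (1.62, 0.66 and 1.92) and SDH2 (1.06, 1.16 and 1.54), subunits of succinate dehydrogenase, and CYC1, cytochrome c (0.87, 0.81 and 0.88), rose. These 3, and SDH3, SDH4, CYC7 and NDI1, which also rose, have no partner subunits made by mitochondrial ribosomes. The other genes of the list that rose, QCR6, COX5B, ATP5 and ATP7, belong to complexes that do. All comparisons share the same 3 arrays, so these lists are set side by side only.

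**Figure D3:**
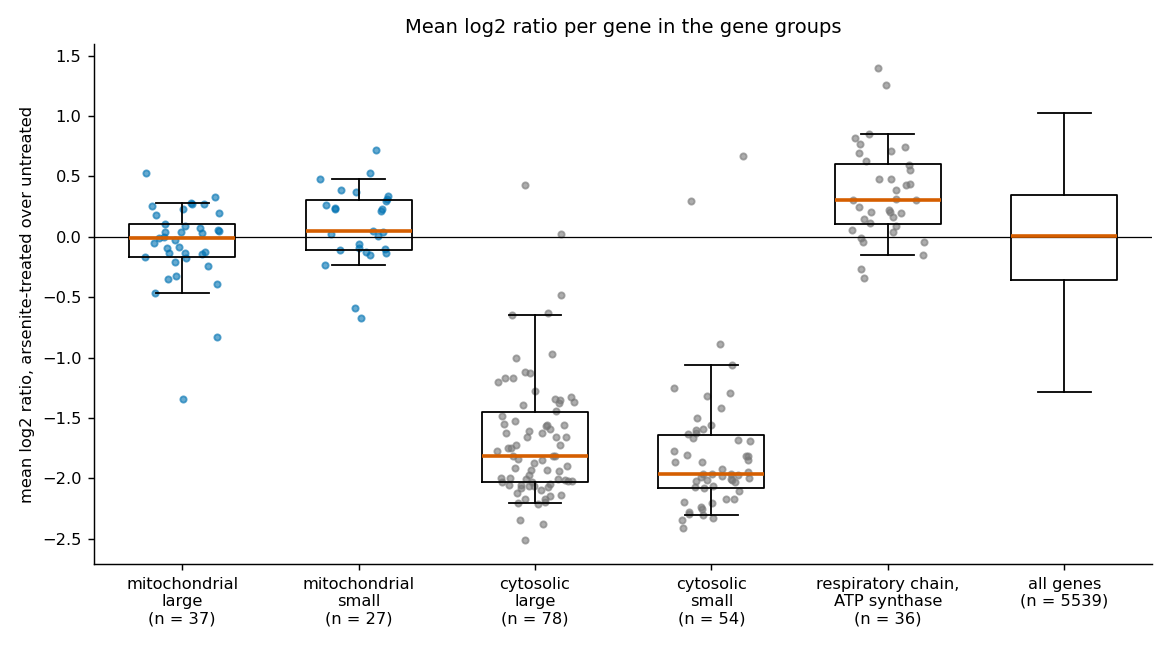
Mean log2 ratio over 3 arrays for each gene, with 1 point for each gene, boxes from the lower to the upper quartile, a coloured line at the median and whiskers to the 5th and 95th percentiles; single points are not drawn for all genes. The mitochondrial groups centre on -0.0091 (large) and 0.04 (small), the cytosolic groups on -1.81 (large) and -1.97 (small).

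Other genes of mitochondrial gene expression held single genes that passed in both directions. Of 12 mitochondrial aminoacyl-tRNA synthetase genes, which charge the tRNAs, 1 fell and 0 rose (limma; 1 below and 3 above 0 at an unadjusted p under 0.05), or 8.33% that fell against 18.1% of all genes. It was MSE1, for the mitochondrial glutamyl-tRNA synthetase, with -0.91, -1.04 and -1.07 (-1.01 ± 0.09, limma adjusted p = 0.000722). Of 9 translation factor genes, 1 fell and 1 rose, or 11.1% each way, against 18.1% and 14.5% of all genes. MEF2, for an elongation factor G-like GTPase, rose with 1.11, 0.72 and 1.25 (1.03 ± 0.28, limma adjusted p = 0.000911). TUF1, the mitochondrial elongation factor Tu, fell with -0.46, -0.76 and -0.55 (limma adjusted p = 0.0227), a call lost without replicate 1 (0.153) and with values as deposited (0.233). The other 7 factors did not pass, among them the elongation factor MEF1 (0.0056 ± 0.18) and the initiation factor IFM1 (0.04 ± 0.54).

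Of 14 genes of mitoribosome assembly, rRNA modification and membrane insertion, 2 rose (14.3%, against 14.5% of all genes) and 1 fell (7.14%, against 18.1%). MTG1, a GTPase for assembly of the large subunit, rose 2.34-fold, with 1.13, 1.24 and 1.31 (limma adjusted p = 0.000151), and passed under every alternative tried. GEP3, a GTPase needed for the small subunit, fell with -0.41, -0.53 and -1.04 (limma adjusted p = 0.0180). Its call was lost without replicate 1 (0.0703), without replicate 3 (0.105), with values as deposited (0.160) and with the last spot (0.0746). AFG3 encodes a subunit of the protease that processes Mrpl32, the protein of the MRPL32 gene. AFG3 rose at the edge of the threshold, with 0.45, 0.66 and 0.40 (limma adjusted p = 0.0478), passed under 2 of 11 alternatives, and did not pass with any 1 array left out (0.0522 to 0.290). MRPL32 itself had 0.39, -0.35 and 0.49. Of 16 translational activators, which bind single mitochondrial messages, AEP3 rose with 0.48, 0.48 and 0.59 (limma adjusted p = 0.0401) and 0 fell (0 below and 4 above 0 unadjusted). That is 6.25% that rose, against 14.5% of all genes, and 2 genes rose with runs centred. AEP3 did not pass without replicate 1 (0.283), without replicate 3 (0.0969), with values as deposited (0.124) or with the last spot (0.0802).

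**Figure D4:**
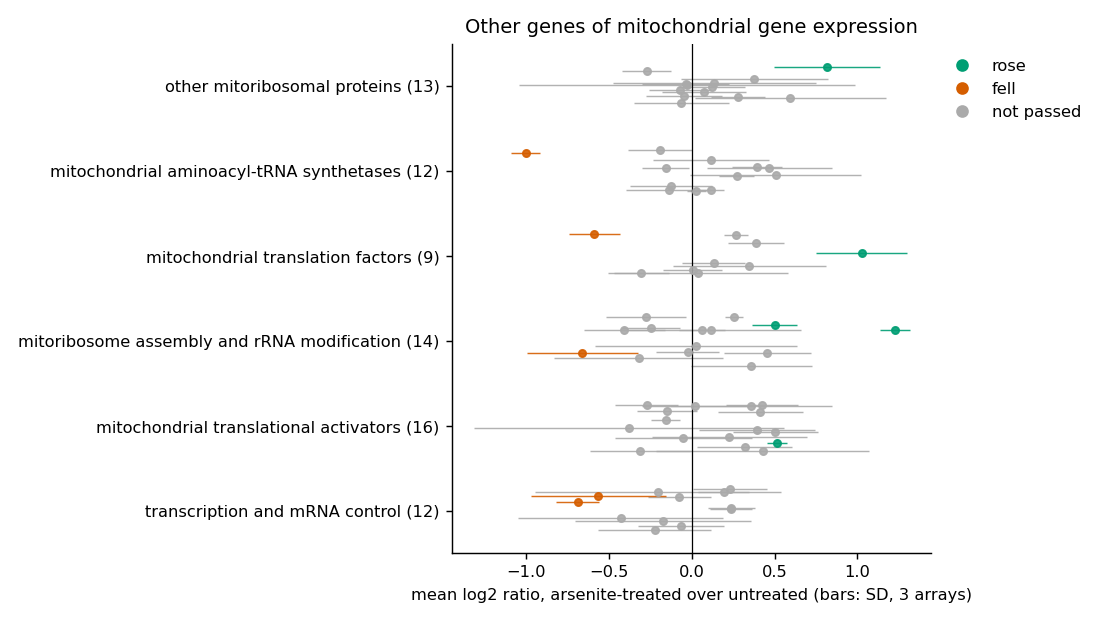
Mean log2 ratio over 3 arrays with SD for the other genes of mitochondrial gene expression, 1 point for each gene, grouped by list with the number of genes in parentheses. Coloured points passed the test; MTG1 (1.23) and MEF2 (1.03) lie farthest to the right and MSE1 (-1.01) farthest to the left.

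Regulators were measured as transcripts only. PUF3 had -0.72, -0.85 and 0.28, so 2 arrays were low and replicate 3 was high, and it did not pass (-0.43 ± 0.62, limma adjusted p = 0.167). The subunits of the Hap complex, an activator of respiratory genes, did not pass, with HAP4 at -0.07 ± 0.19, HAP2 at -0.07 ± 0.26, HAP3 at 0.24 ± 0.14 and HAP5 at 0.23 ± 0.22. Of the 12 genes of this list 2 fell and 0 rose (limma; also 0 above 0 unadjusted), or 16.7% that fell against 18.1% of all genes. IXR1, a DNA-binding protein of the hypoxic response, had -0.84, -0.64 and -0.59 (limma adjusted p = 0.00956) and passed neither without replicate 1 (0.190) nor with values as deposited (0.134). ABF1, a general DNA-binding factor, had -0.76, -0.10 and -0.84 (adjusted p = 0.0449), and was lost without replicate 1 (0.364), without replicate 3 (0.145), with values as deposited (0.263) and with the last spot (0.114). The mitochondrial RNA polymerase RPO41 had -0.17 ± 0.53.

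The members are spread over 14 chromosomes, with at most 11 on 1 of them, chromosome IV. RSM19 and MRPS12 are the one pair of members that adjoin each other in the RefSeq table. Counted once for each member they adjoin, the members' 115 measured neighbours held 24 that fell (20.9%) and 14 that rose (12.2%). These are near the shares of 18.1% and 14.5% over all genes. KKQ8 is counted for both MRPL38 and MRP49. RSM19 and MRPS12 are counted for each other, so RSM19 is among the neighbours that rose. By systematic names, 32 members have a measured neighbour that is transcribed away from them, so that both genes share the region between them. Of those neighbours, 5 fell (15.6%) and 4 rose (12.5%), against 18.1% and 14.5% of all genes. As 6.25% of the 64 members fell and 3.1% rose, 9 pairs are too few to read counts of shared direction from. In 0 of the 9 pairs did the member pass in the same direction as its neighbour (limma). In 3 pairs it passed in the opposite one. These were MRP1, which rose, beside SVF1 (-0.69), RSM26, which fell, beside AIM25 (0.69), and RSM19, which rose, beside DBP6 (-0.95).

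The pairs described next were chosen with their values in view. MRPL16 lies beside URA7, a CTP synthase gene, which had -2.48, -2.15 and -2.25 where MRPL16 had 0.56, 0.86 and 0.17. MRPS16 (0.02, -0.24 and -0.07) lies beside RRP12, which is needed for export of ribosomal subunits from the nucleus and had -1.70, -1.59 and -1.42. MRPL6 lies beside IMP3, of the small-subunit processome, with -1.21, -0.82 and -1.01. RSM19 lies beside DBP6, an RNA helicase of large-subunit assembly, with -0.59, -1.51 and -0.74. Neighbours that rose were DUG2 (1.24, 0.78 and 1.47) beside MRPL27 (mean 0.28), GCV2 (1.00, 1.46 and 0.44) beside MRPS17 (mean 0.04) and DBP1 (1.02, 0.44 and 1.20) beside MRP51 (mean -0.14).

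**Figure D5:**
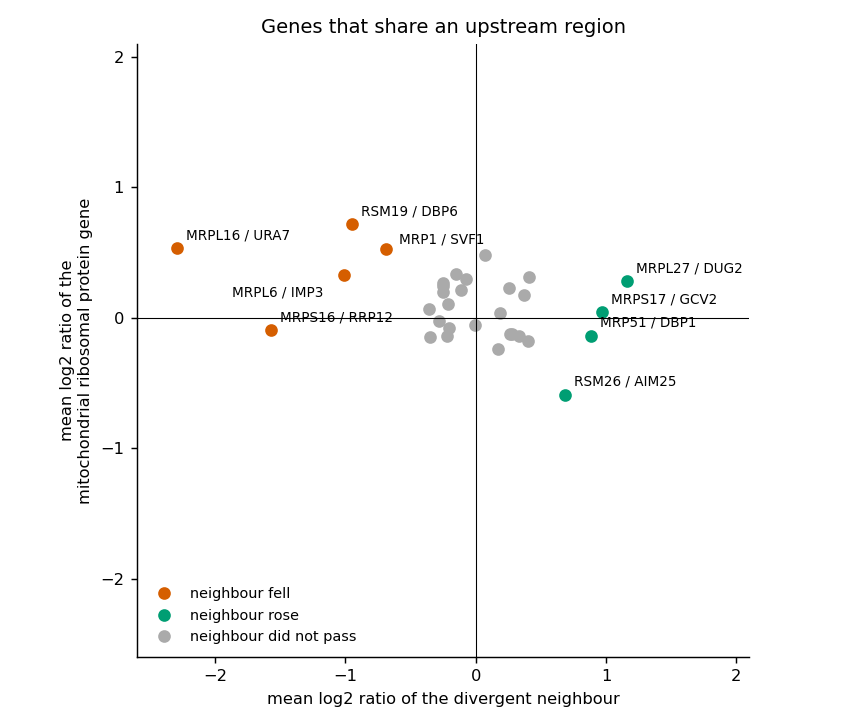
Mean log2 ratio of 32 mitochondrial ribosomal protein genes (vertical) against that of the measured neighbour transcribed away from them (horizontal), both axes on 1 scale; colours give the neighbour's call, and pairs with a neighbour that passed are named as member / neighbour. The neighbours that passed span -2.29 (URA7) to 1.16 (DUG2), and the members of those pairs span -0.59 (RSM26) to 0.72 (RSM19).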

How the data were processed

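For 3 arrays of 13056 spots, the series' table gives 1 value per spot, with 0 missing. These deposited numbers were taken to be log2 ratios of Cy5 over Cy3, a direction that was assumed. Log base, scanner, background correction and normalization: not given in the sources used here. Were the base natural, every log2 ratio would be 1.44 times larger and no test would change. Replicate 3 was multiplied by -1 because its labels give exchanged dyes. Before this turn it correlated negatively with replicates 1 (r = -0.782) and 2 (r = -0.613).

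Spots were named through the platform annotation: 11138 had 1 symbol, 0 several and 1918 none. All 64 members' gene IDs matched RefSeq, assembly R64, which gave systematic names and neighbours. Its coordinates are not printed, as the files name no build. Subunit, bacterial counterpart and region of each member were read from a separate list of roles. Spots were averaged per gene, arrays centred on the gene median, and the mean compared with 0 by limma 3.58.1 (R 4.3.3; lmFit, then eBayes; two-sided), with p adjusted by Benjamini and Hochberg over 5539 genes at 0.05. The 95% intervals use the fit's 10.8 prior and 2 residual degrees of freedom. The fit was tested on simulated data. Figures used Python 3.11.15 and matplotlib 3.10.9.

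Members and lists were chosen with earlier results of these data known. Named were, per subunit, up to 6 members that passed with 1 sign and fell most and the 3 nearest 0, all members that rose, the 3 with the largest SD, mitoribosomal proteins of other names, and up to 3 genes past the test in each other list. Further genes were named for their role or after their values were seen. Cytosolic ribosomal proteins were taken by symbol, without RPP1, an RNase P subunit. Precision is limited by having 3 arrays, and no spot intensities were used.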

Additional observations from a re-analysis of the deposited data

How the results depend on the processing

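The alternatives were values as deposited (replicate 3 turned, arrays not centred), scaling, centring on all spots, a dye effect, single spots, robust eBayes and leaving out each array. Centring within runs of spots was added after seeing the data. As deposited, 603 of all genes fell, 1 member fell (MRPL51), 1 rose (RSM19) and the members' median was 0.12; all genes then share 1 standard error (0.290), as they do with a dye effect and without replicate 1 or 3. Members that rose numbered 1 when centred on all spots, 1 with a dye effect and 0 with the last spot of each gene (limma; 2 unadjusted). With 1 array left out, 602 to 1071 of all genes fell and 412 to 939 rose, and 2 to 3 members fell and 0 to 3 rose, the lowest of each being without replicate 1. The gap between mitochondrial and cytosolic medians of gene means, 1.89 with all arrays, was then 1.74 to 1.94, the lowest without replicate 2. Of the 64 members, MRPL51 alone passed under all 11 alternatives, with adjusted p up to 0.000677. Large minus small subunit stayed between -0.17 and -0.04. The reported test already pairs treated with untreated RNA on each array. For a block by replicate number beyond that, no paired analysis was possible because only 1 group of ratios exists. Without intensities, signal over background is unknown.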
